A study of Bos taurus with 8 samples.

Results

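The HOX genes encode homeodomain transcription factors and lie in 4 clusters, HOXA to HOXD. All 39 rows of the deposited count table whose symbol is HOX, a cluster letter and a number were taken, of 32640 genes listed. They comprise 11 genes of HOXA on chromosome 4, 10 of HOXB on chromosome 19, 9 of HOXC on chromosome 5 and 9 of HOXD on chromosome 2 of the bovine assembly ARS-UCD2.0.

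Within a cluster the genes are numbered by paralog group, from the anterior members at the low numbers to the posterior members at the high ones. During axial elongation they switch on in roughly that order, and the combination that remains active marks the position of a cell along the body axis. In pluripotent cells the clusters are known to be held largely silent by Polycomb proteins, while fibroblasts keep a HOX code of the site they came from.

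RNA was sequenced from 4 bESC (bovine embryonic stem cell) lines named A, C, D and E, of genotype XX, derived from early or full blastocysts on mouse feeders in NBFR medium, a serum-free medium with FGF2 and a WNT inhibitor. Each line was sampled in 5% O2 on MEF, an irradiated mouse embryonic fibroblast layer, at passage 15 to 17, and again in 5% O2 after the move to feeder-free culture on vitronectin, at passage 20 to 22, giving 4 libraries per condition. The methods add Activin A for feeder-free culture only, while the sample titles carry the same medium code, NBFRA, in both conditions. Matrix, passage and the presence of mouse cells therefore changed together, as did Activin A if the methods hold for these samples. Their effects cannot be told apart. The paper applied no batch correction, and the sequencing batch of each library is not given in the sources used here.

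The 8 libraries held 44268717 to 102351560 counts on genes, the largest being line D on vitronectin. The pluripotency factor POU5F1 had 1784 to 2203 CPM (counts scaled to the library total) in every library. The marker FGF5, which is characteristic of the formative and primed epiblast, was at or under 0.05 CPM. Other markers listed for primed bESCs were expressed, OTX2 at 174 to 430 CPM, ZIC2 at 364 to 574.5 CPM and DNMT3B at 559 to 1737 CPM. A count of 0 allows up to 3 counts, which is 0.0293 CPM in the deepest library and 0.0553 to 0.0678 CPM in the others. This limit covers counting error only. Of all counts from 1 to 20, 69.8 to 75.3 percent per library were even numbers, against 51.2 to 56.6 percent of counts above 100 and up to 1000, and among the HOX genes other than HOXD3 and HOXD4, 72 of 84 counts above 0 were even. Whether reads or read pairs were counted is not given in the sources used here, so a count of 2 may be a single fragment. The limit for a count of 0 would then be higher than given.

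Transcription from the HOX clusters was close to silent in bESCs in both conditions, apart from HOXD3 and HOXD4. HOXD3 was the only one of 39 genes with at least 10 counts in every library, on MEF and in feeder-free conditions alike. HOXD4, its neighbour, reached 10 counts in 5 of 8 libraries. The remaining 37 genes never exceeded 21 counts in a library on MEF or 12 in feeder-free conditions.

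**Figure D1:**
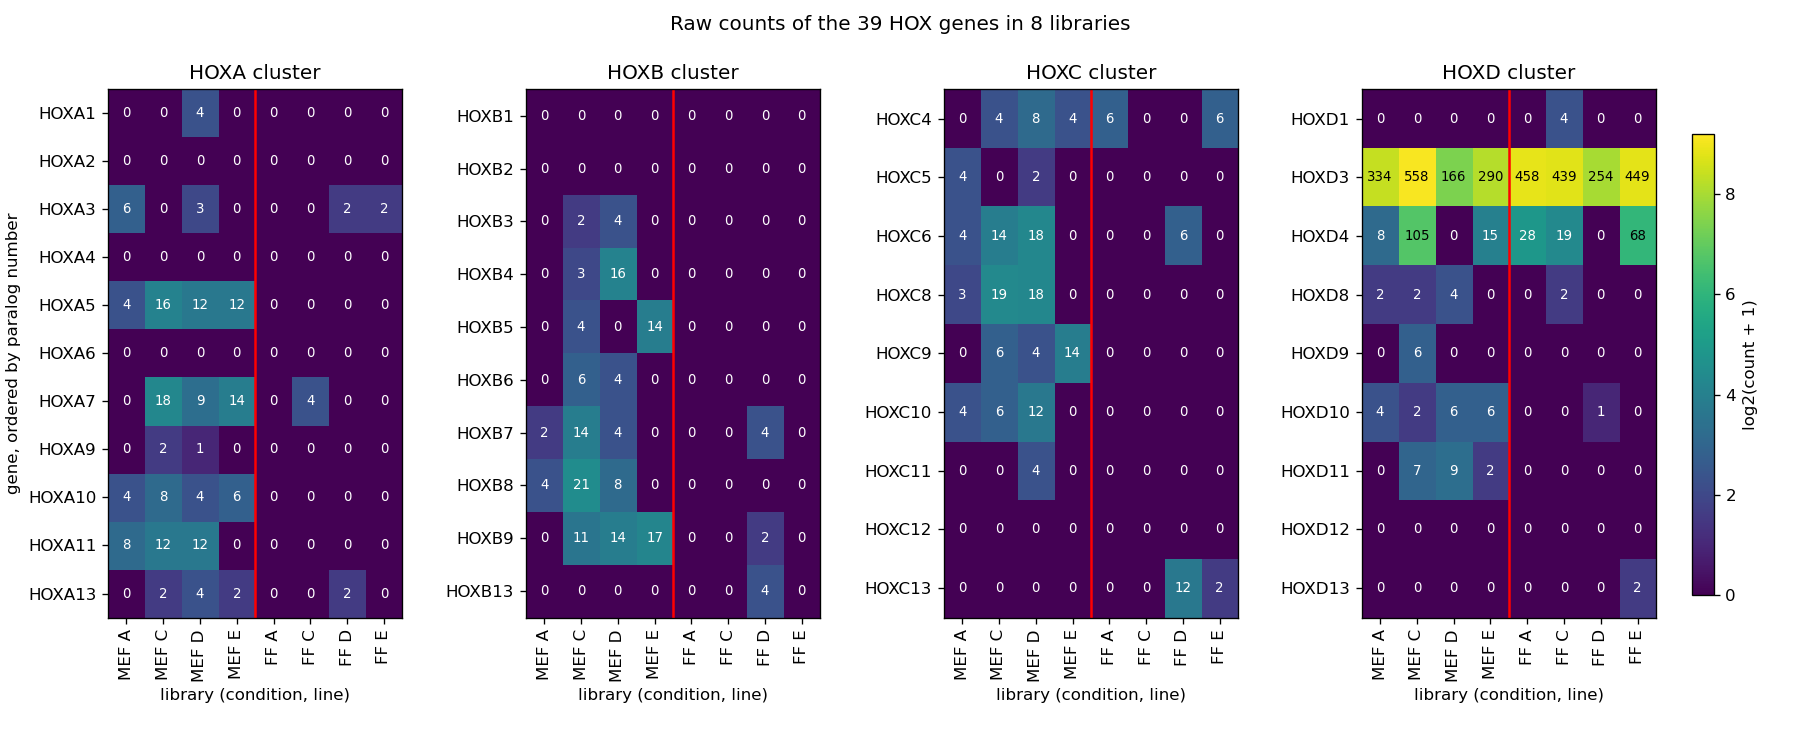
Raw counts of each HOX gene (rows, by cluster and paralog number) in each library (columns, MEF left of the red line, feeder-free, FF, right of it), with the colour giving log2(count + 1). HOXD3 has 166 to 558 counts in all 8 libraries, whereas the other genes apart from HOXD4 stay at 21 or fewer, with most counts above 0 on the MEF side.

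HOXD3, a gene of paralog group 3 whose members pattern the hindbrain, pharyngeal arches and neck vertebrae, lies on chromosome 2 from 20734749 to 20760276. On MEF its level was 7.54 CPM in line A, 10.28 in line C, 3.47 in line D and 6.42 in line E. In feeder-free conditions it was 9.22 CPM in line A, 8.55 in line C, 2.48 in line D and 8.79 in line E. The ranges of the conditions overlapped, and line D was lowest in both.

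The mean level of HOXD3 was 6.93 ± 2.82 CPM on MEF (SD, n = 4) against 7.26 ± 3.20 CPM without feeders (SD, n = 4). In edgeR's quasi-likelihood fit over 15744 genes the log2 fold change was 0.02, with SE 0.44 and adjusted p = 0.988. It was higher in feeder-free conditions in lines A and E and lower in lines C and D. With cell line as a paired term the log2 fold change was -0.04 with a standard error of 0.20, so the difference between conditions was smaller than its standard error in either fit. HOXD3 made up 47.4 to 85.4 percent of all HOX counts on MEF and 84.9 to 93.8 percent in feeder-free conditions. Divided by the length of the annotated gene, introns included, HOXD3 had 0.278 CPM per kb, higher than 36.5 percent of 15678 tested genes with a RefSeq position, where the median was 0.646 CPM per kb.

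HOXD4, of paralog group 4, which acts at the boundary of hindbrain and spinal cord, lies from 20759992 to 20776543. Its span overlaps that of HOXD3. Its counts on MEF were 8 in line A, 105 in line C, 0 in line D and 15 in line E. In feeder-free conditions they were 28 in line A, 19 in line C, 0 in line D and 68 in line E. No count was found in line D in either condition. By the limit above this allows 0.0627 CPM on MEF and 0.0293 CPM in feeder-free conditions, and more if a fragment gave 2 counts. The other 6 libraries ranged from 0.181 to 1.93 CPM.

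The mean level of HOXD4 was 0.612 ± 0.892 CPM on MEF (SD, n = 4) against 0.566 ± 0.561 CPM without feeders (SD, n = 4), and edgeR gave a log2 fold change of -0.16 with SE 1.38 and adjusted p = 0.965. The sign was not stable: it turned to 1.64 without the MEF library of line C (edgeR adjusted p = 0.605), to 0.27 without the feeder-free library of line D and to 0.39 with the replicate block, and it was 0.0016 without the feeder-free one of line C. The annotated spans of HOXD3 and HOXD4 overlap, and how counts within the overlap were assigned is not given in the sources used here.

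The lines differed more than the conditions did for these genes. A test of the line term, chosen after the values had been seen, was run in the paired fit over all 15744 genes, of which 11.8 percent differed between lines at an adjusted P-value under 0.05. HOXD3 passed with an edgeR adjusted p = 0.0199. Its level in line D was 1.55 log2 units below line A, and lines C and E were within 0.18 of line A. HOXD4 passed narrowly in the same edgeR fit, at adjusted p = 0.04875. Each line has 1 library per condition, so the line term rests on pairs of libraries.

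**Figure D2:**
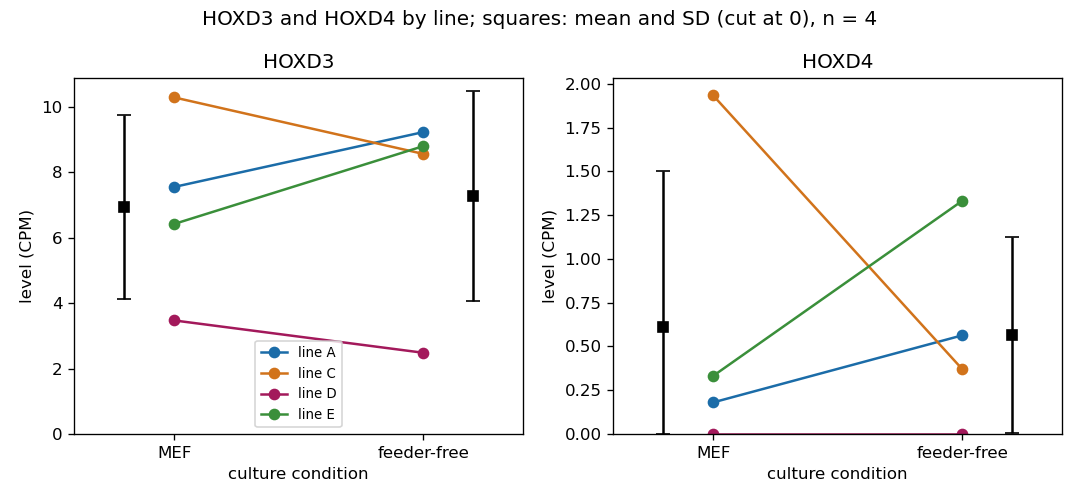
Level in CPM of HOXD3 (left) and HOXD4 (right) on MEF and in feeder-free conditions, a coloured line joining both libraries of a cell line and black squares giving the mean and SD of 4 libraries, the SD cut at 0. Line D is lowest for HOXD3 in both conditions, at 3.47 and 2.48 CPM, and has no HOXD4 count.

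No HOX gene was differentially expressed between conditions at the study's thresholds for the adjusted P-value (0.05) and the fold change (1.5). Both were passed by 1.73 percent of the 15744 tested genes, 0.724 percent as higher and 1.00 percent as lower in feeder-free conditions. Only HOXD3 and HOXD4 had counts high enough to enter that test. Neither had an unadjusted P-value under 0.05 in edgeR, and DESeq2 called 0 as well. With cell line as a replicate block neither was called, nor did either have an unadjusted P-value under 0.05, where 5.52 percent of genes were called higher and 4.53 percent lower. When every gene with at least 1 count was kept, 32 HOX genes were tested and edgeR called 0, while 15 had an unadjusted P-value under 0.05, all lower in feeder-free conditions. Of the 23262 genes in that fit 7.45 percent had an unadjusted P-value under 0.05 and were lower (15.9 percent in either direction), as did 2.07 percent of the genes in the range of mean CPM of the rarely counted HOX genes, and 0.731 percent were called. With all genes kept and cell line as a replicate block, HOXA5 and HOXC8 were called lower by edgeR (adjusted p = 0.0157 and 0.0441), where 3.42 percent of 23262 genes were called lower and 5.12 percent higher. When line A's feeder-free library was left out, which also lets more low genes into the test, 4 HOX genes were tested. HOXA5 entered through its MEF libraries alone, having no feeder-free count, so it could only come out lower. It was called lower by edgeR in the unpaired fit, at adjusted p = 0.0440, where 1.45 percent of 15974 genes were called lower. That call is therefore no separate support.

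Below the level at which genes are usually tested, the other 37 HOX genes had more counts on MEF. This grouping was made after the values were seen, and the sums are given as a description. Summed over the 37 genes there were 49 counts on MEF in line A, 185 in line C, 184 in line D and 91 in line E. The feeder-free libraries had 6 counts in line A, 10 in line C, 33 in line D and 12 in line E. Relative to library totals this was 2.59 ± 1.26 CPM on MEF (SD, n = 4) against 0.218 ± 0.0840 CPM without feeders (SD, n = 4), and the conditions did not overlap, the lowest MEF library having 1.11 CPM and the highest feeder-free library 0.322 CPM. Within lines the sum on MEF was 8.57 to 17.5 times that in feeder-free conditions. In bulk RNA, fewer cells that express a gene and less RNA per cell cannot be told apart.

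**Figure D3:**
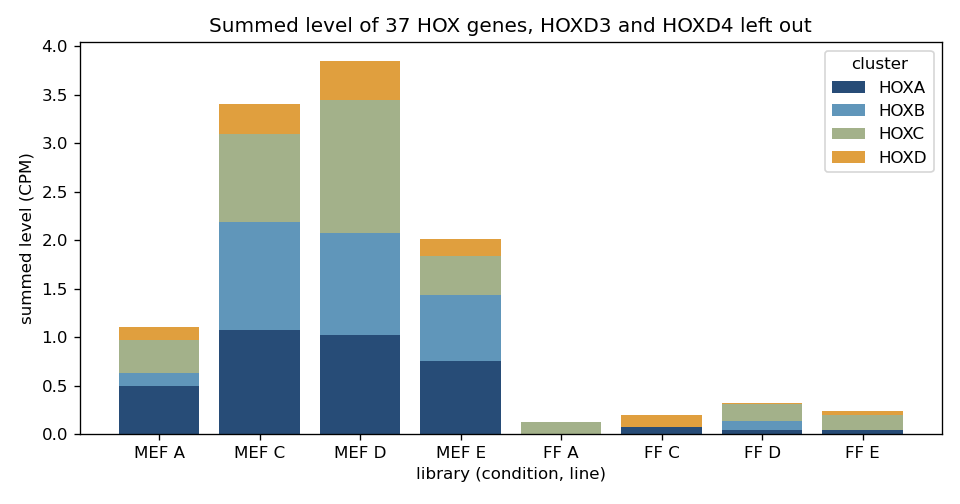
Summed level in CPM of the 37 HOX genes other than HOXD3 and HOXD4 in each library, bars stacked by cluster. The MEF libraries reach 1.11 to 3.85 CPM and the feeder-free (FF) libraries 0.121 to 0.322 CPM, with all 4 clusters present in each MEF library.

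Of these 37 genes, 30 had a count in some library. Their mean CPM was higher on MEF for 26, or 86.7 percent, against 48.2 percent of the 5371 genes in the same range of mean CPM. Counts were confined to MEF libraries for 17 of the 30, or 56.7 percent, against 13.4 percent of the genes in that range. Counts were confined to feeder-free libraries for 4 of the 30, or 13.3 percent, against 20.6 percent of the genes in that range. These were HOXD1 and the terminal members HOXB13, HOXC13 and HOXD13. The largest of these counts, 12, was HOXC13 in the feeder-free library of line D. All 4 MEF libraries lay above all 4 feeder-free libraries for HOXA5, HOXA10 and HOXD10, which is 3 of the 32 HOX genes with a count, where 4.80 percent of 23262 genes did so. Among the genes in the low range of mean CPM it was 0.708 percent, against 3 of the 30. For HOXD10 the lowest MEF library, line C, had 2 counts or 0.0368 CPM, within the limit for a count of 0. For HOXA5 and HOXA10 the lowest MEF count was 4. No HOX gene had all feeder-free libraries above all MEF libraries, as 5.46 percent of the 23262 genes did.

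By cluster, the MEF libraries held 163 counts on HOXA, 148 on HOXB, 148 on HOXC and 50 on HOXD without HOXD3 and HOXD4, against 10, 10, 32 and 9 in feeder-free libraries. By position, the 14 central genes, paralogs 4 to 8, had 291 counts on MEF and 28 in feeder-free conditions. The 16 posterior genes, paralogs 9 to 13, had 199 and 25. The 7 anterior genes, paralogs 1 to 3, had 19 and 8, and their sum was higher on MEF in 2 of 4 lines only, against 4 of 4 lines for the central and the posterior genes.

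In HOXA, HOXA7, a gene of thoracic patterning, had 0 counts in line A, 18 in line C, 9 in line D and 14 in line E on MEF, and in feeder-free conditions 4 in line C and 0 in the other lines. HOXA5, which patterns the lower neck and the lung, had 4, 16, 12 and 12 counts in lines A, C, D and E on MEF, and none in feeder-free conditions. HOXA11, a gene of forearm and uterine development, had 8, 12, 12 and 0 counts on MEF in the same order of lines, and none in feeder-free conditions. The MEF library of line A was therefore low for HOXA7 but not for HOXA11, where that of line E had no count.

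In HOXB, HOXB7 had 2, 14, 4 and 0 counts in lines A, C, D and E on MEF, and 4 in the feeder-free library of line D alone. HOXB4, known for expanding blood stem cells, had 3 counts in line C and 16 in line D on MEF and none elsewhere. HOXB5, a gene of enteric nerve development, had 4 counts in line C and 14 in line E on MEF and none elsewhere. Each of these rests on 2 or 3 MEF libraries.

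In HOXC, HOXC8, a gene of thoracic vertebrae and brachial motor neurons, had 3, 19, 18 and 0 counts in lines A, C, D and E on MEF, and none in feeder-free conditions. HOXC10, of lumbar and hindlimb patterning, had 4, 6, 12 and 0 in the same order on MEF, and none in feeder-free conditions. HOXC5 had 4 counts in line A and 2 in line D on MEF and none elsewhere. In HOXD, HOXD11, which acts with HOXA11 in forearm and kidney, had 7 counts in line C, 9 in line D and 2 in line E on MEF and none elsewhere.

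HOXA2, HOXA4, HOXA6, HOXB1, HOXB2, HOXC12 and HOXD12 had no count in any library, as did 28.7 percent of all 32637 genes with values. HOXB1 and HOXA2 are early hindbrain genes, and HOXC12 and HOXD12 lie near the posterior end of their clusters. The spans of HOXA4 and HOXA6 overlap those of HOXA3 and HOXA5, and 14 of the 39 genes overlap another HOX gene, so their counts are less certain. The 20 other annotated genes inside the clusters, 7 of them microRNA genes and 11 long non-coding RNAs, had at most 2 counts in any library.

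Markers of fibroblasts, the cells of the feeder layer, were read beside these counts. Summed over the list of 19 fibroblast genes the level was 462 to 607 CPM on MEF and 297 to 1323 CPM in feeder-free conditions, and COL1A1 supplied much of it. The list's median log2 fold change over 17 tested genes was 0.12, against 0.01 over all genes. In the unpaired fit 0 of the 17 passed. With the replicate block 2 passed as higher and 2 as lower, where 5.52 percent of all tested genes were called higher and 4.53 percent lower. Of the mesoderm and neural markers, 3 and 5 were tested and 0 passed in the unpaired fit. With the block EOMES and LHX2 passed as higher, at 1.61 and 1.69, and ZIC1 as lower, at -2.74 (edgeR adjusted p = 0.0307, 0.000834 and 0.00319).

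The fibroblast genes did not move together. For COL1A2, PRRX1 and TWIST2, 3 of the 19 genes, all 4 MEF libraries lay above all 4 feeder-free libraries, as for 4.80 percent of 23262 genes. No gene of the list did the reverse, as 5.46 percent of the 23262 genes did. These 3 are named because of that pattern, after their values were seen.

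COL1A2, a chain of type I collagen, had 0.858 CPM in line A, 4.66 in line C, 4.70 in line D and 0.664 in line E on MEF, and 0.429 CPM or less in feeder-free conditions. PRRX1, a mesenchymal transcription factor, had 1.08, 2.60, 2.65 and 0.995 CPM on MEF in the same order, and 0.606 CPM or less in feeder-free conditions. TWIST2 had 0.0678, 0.479, 0.669 and 0.0442 CPM on MEF and no count in feeder-free conditions. In lines A and E on MEF this was 3 and 2 counts, no more than the limit for a count of 0 allows. Lines C and D on MEF were the highest for these 3, as for the sum of the 37 HOX genes. With the replicate block COL1A2 and PRRX1 passed as lower, at -4.35 and -4.15 (edgeR adjusted p = 0.00166 and 0.00759).

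Other genes of the list lay the other way. COL3A1, a fibrillar collagen, had 0.768, 0.516, 1.59 and 0.177 CPM on MEF in lines A, C, D and E, and 1.45, 5.16, 10.5 and 1.88 CPM in feeder-free conditions. POSTN, a matrix protein, had at most 0.669 CPM on MEF and 2.62 CPM in the feeder-free library of line D. Both passed as higher with the block, at 2.53 and 2.77 (edgeR adjusted p = 0.00654 and 0.0317). COL1A1 and LUM were also highest in feeder-free libraries of lines C and D, at 618 and 1033 CPM for COL1A1 and at 75.2 and 58.6 CPM for LUM, and passed in neither fit. FAP, another fibroblast marker, did not share this direction, with 4 counts in line C and 6 in line E on MEF and none elsewhere. According to the methods, libraries on MEF were corrected for feeder reads that map to the bovine genome, using RNA of feeders alone. The methods do not state whether the deposited raw counts come before or after that step. The part of feeder RNA in the HOX counts was not tested.

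**Figure D4:**
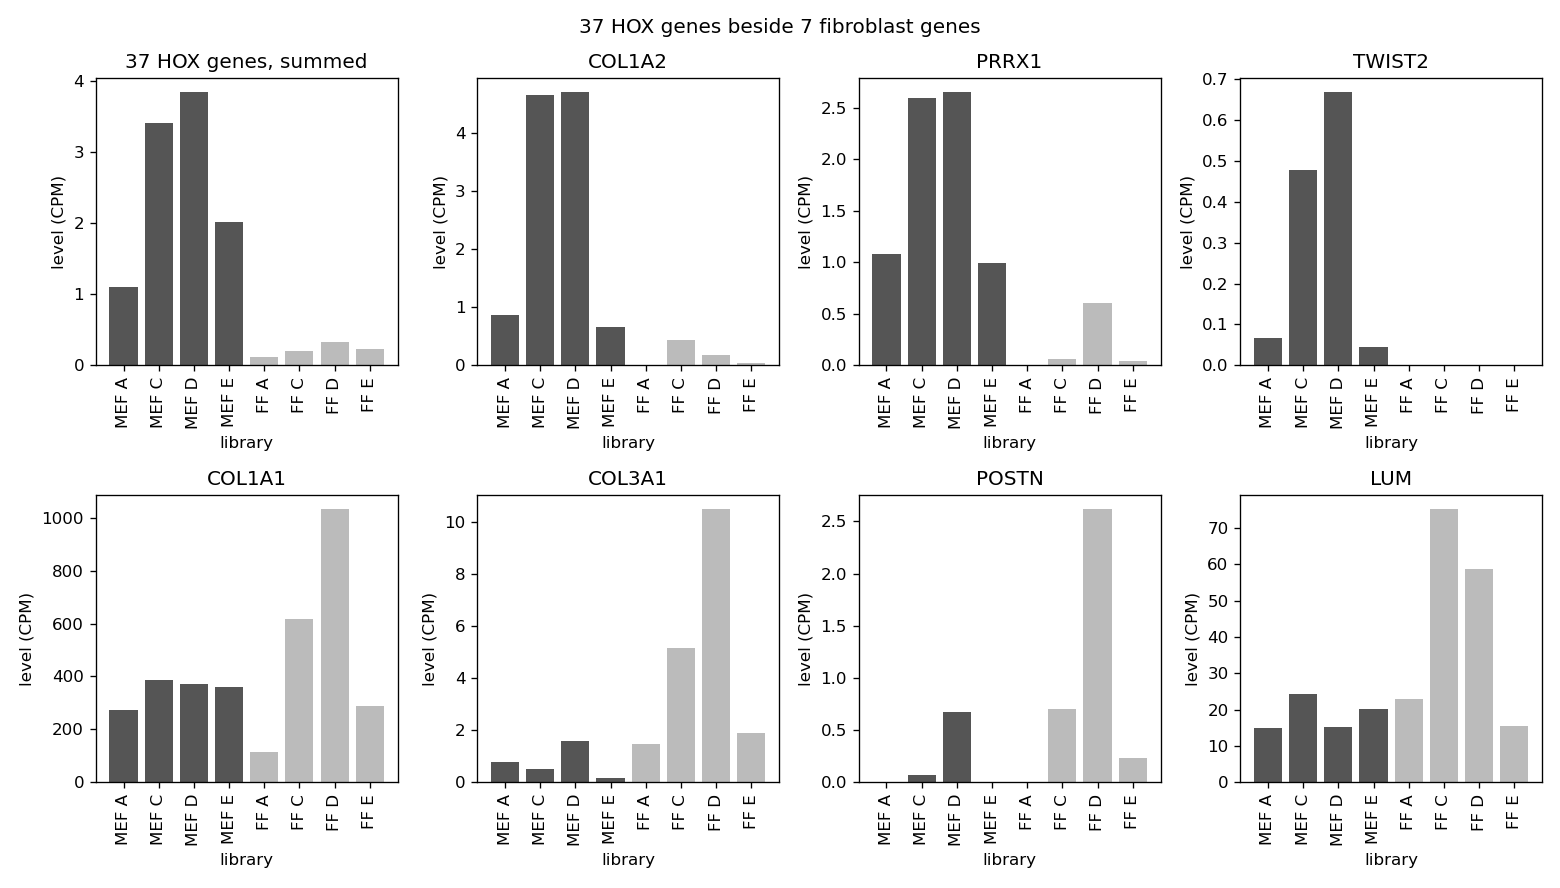
Level in CPM per library of the 37 HOX genes summed and of 7 of the 19 fibroblast genes, chosen to show both directions (dark bars MEF, light bars feeder-free, FF; each panel has its own axis from 0). In the upper panels lines C and D on MEF are the highest, and in the lower panels the highest bars are feeder-free libraries of line C or D.

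HOX proteins bind DNA together with TALE cofactors, among them the MEIS family. MEIS1 had at most 0.52 CPM in any library and a log2 fold change of -2.28, and MEIS2 had 0.78, and neither passed. MEIS3 did not pass in the unpaired fit and was lower with the replicate block, at -0.64 (adjusted p = 0.0107 from edgeR).

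Among inducers of HOX genes and genes of retinoid signalling and turnover, 14 of 19 were tested. FGF8 and RARB fell and none rose, where 1.00 percent of all tested genes were called lower and 0.724 percent higher. The list's median was -0.46. RARB, a retinoic acid receptor that is itself a retinoid target, had 11.8 ± 2.51 CPM on MEF (SD, n = 4) against 3.25 ± 0.605 CPM without feeders (SD, n = 4), for which edgeR gave a log2 fold change of -1.91 and adjusted p = 0.0275. FGF8, a growth factor of the posterior growth zone, had 5.36 ± 2.62 CPM on MEF (SD, n = 4) against 1.43 ± 0.434 CPM without feeders (SD, n = 4), for which edgeR gave -1.97 and adjusted p = 0.0466. Both were lower in 4 of 4 lines. The retinoid-degrading enzymes CYP26B1 and CYP26A1 had the lowest and highest log2 fold changes of the list, -1.99 and 1.12, and did not pass. CYP26B1 passed as lower with the replicate block, at -2.06. TBXT, the master gene of the primitive streak, had no count on MEF and at most 0.235 CPM in feeder-free conditions.

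The caudal, ParaHox and EVX genes, relatives of the HOX genes that flank the clusters or act upstream of them, were nearly silent as well. CDX4 alone of 8 was tested. It had 0.0885 to 0.606 CPM on MEF and 0.862 to 1.02 CPM in feeder-free conditions. The conditions did not overlap, as for 5.46 percent of 23262 genes in that direction. For CDX4 edgeR gave a log2 fold change of 1.75 with SE 0.60 and adjusted p = 0.132. With the replicate block CDX4 passed as higher, at 2.02 and an edgeR adjusted p = 0.0408.

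Most genes outside the clusters on the same chromosomes were expressed. The nearest, TTLL6, beside HOXB, was not, with 0.0403 to 0.181 CPM, and SKAP1 ranged from 0.0368 to 2.23 CPM. Both are named after their values were seen. Of 16 flanking genes, which lie 25.8 to 1060 kb from a cluster, 15 were tested, and CBX5, on the HOXC side and encoding heterochromatin protein 1 alpha, fell from 1078 ± 133 CPM on MEF (SD, n = 4) to 681 ± 61.4 CPM without feeders (SD, n = 4), for which edgeR gave -0.70 on the log2 scale and adjusted p = 0.0403. SNX10 had the highest log2 fold change of the list, 0.98, did not pass in the unpaired fit and passed with the replicate block, at 0.99. The median of the list was -0.18. MTX2 lies 80.2 kb from the HOXD cluster, on the side of HOXD1. It had 35.2 ± 2.68 CPM on MEF (SD, n = 4) against 53.6 ± 4.32 CPM without feeders (SD, n = 4). Its log2 fold change of 0.57 was just short of the threshold, at an edgeR adjusted p = 0.0414. MTX2 is named after its value was seen.

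Chromatin regulators of the clusters comprise the MLL and Polycomb proteins, which keep HOX genes active or silent. Of 27 tested, KDM6B and KAT6A fell and none rose, against 1.00 percent of all tested genes called lower, and the list's median was -0.13. KDM6B, which removes the repressive methyl mark of histone H3 lysine 27, had 234 ± 17.4 CPM on MEF (SD, n = 4) against 136 ± 11.2 CPM without feeders (SD, n = 4), for which edgeR gave -0.83 and adjusted p = 0.0331. KAT6A, a histone acetyltransferase, had -0.62, at an edgeR adjusted p = 0.0414. With the replicate block WDR5 and PHF19 passed as higher, at 0.66 and 0.81, where 5.52 percent of all tested genes were called higher. PHF19, a Polycomb accessory protein, had the highest, 0.78, and did not pass. The Polycomb methyltransferase EZH2 and its partners EED and SUZ12 had log2 fold changes of -0.06, 0.19 and 0.01. For these lists together, no gene was called when any single MEF library, or the feeder-free one of line C, D or E, was left out. Leaving out that of line A gave 7 called lower, against 6 with all libraries.

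**Figure D5:**
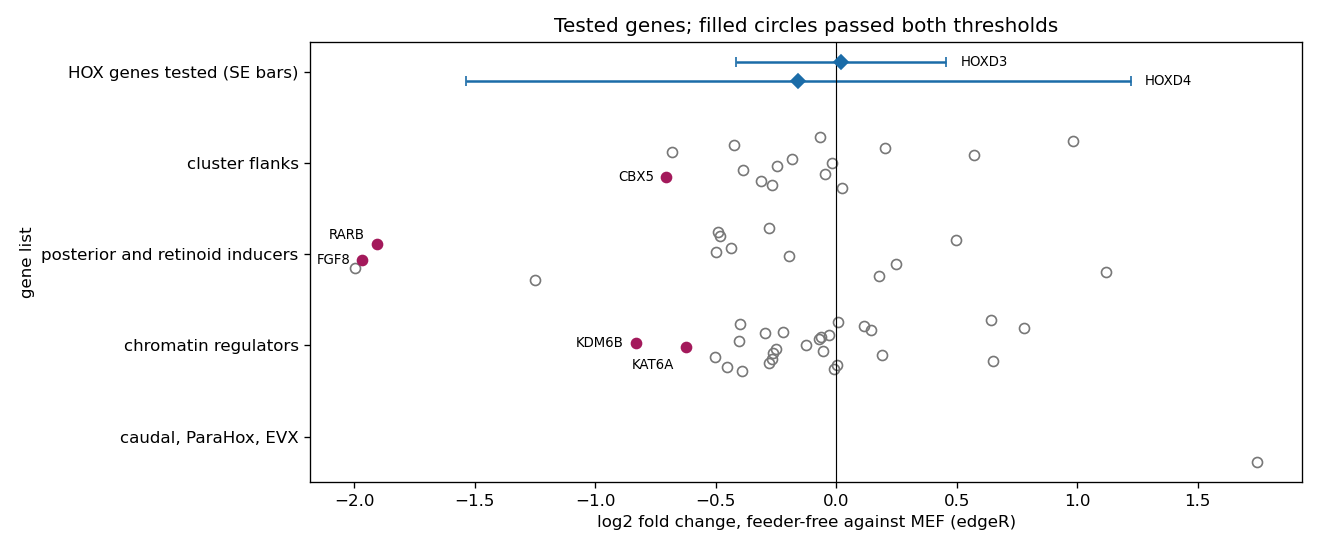
Log2 fold change of feeder-free against MEF for the 2 tested HOX genes (diamonds, bars giving the standard error) and for the tested genes of 4 lists (circles, filled where both thresholds were passed and spread vertically for legibility). All 5 filled circles lie below 0.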

How the data were processed

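RNA-seq counts of 8 libraries were analysed. The authors trimmed reads with Trimmomatic, aligned them to ARS-UCD2.0 with STAR, removed optical duplicates with Picard and alignments with MAPQ under 30 with samtools, and deposited raw counts per gene from featureCounts (Subread 1.6.2 per the processing notes). They also describe a correction of libraries on MEF for feeder reads, for which RNA of feeders alone served. That sample was not analysed here, and whether the deposited counts include the correction is not stated in the methods. Strand is not given in the sources used here.

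Counts were used as deposited, 3 genes without values being left out, and 0 columns were unused. Genes were fitted with edgeR 4.0.16 in R 4.3.3 (filterByExpr, TMM, glmQLFit, glmQLFTest) on condition alone, over 15744 genes. Genes were called where the P-value, adjusted by Benjamini-Hochberg, was under 0.05 and the fold change reached 1.5. The same lines were grown in both conditions, and deviations from the condition mean correlated at 0.421 to 0.664 within lines and at -0.523 to 0.249 between lines, so a fit with line as a replicate block was made as well. Libraries of a condition differed beyond sampling noise (smallest chi-square per degree of freedom 40.8 over 12 pairs). All 39 HOX symbols matched RefSeq annotation of ARS-UCD2.0, which gave positions and gene spans. On simulated counts the unpaired fit called 25 percent of genes changed 2-fold in 15634 tested and 100 percent of those changed 4-fold. The changed genes all had a higher mean CPM than HOXD4 and the rarely counted HOX genes, at a fixed dispersion. The simulated differences between lines were also smaller than those seen for HOXD3. These shares therefore do not apply to HOXD3, HOXD4 or the rarely counted HOX genes.

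The members and lists were chosen with earlier results of these data known. HOX genes given by library were HOXD3, HOXD4 and, in each cluster, the 3 with the highest CPM per kb of gene span, exon lengths not being at hand. Of the lists, genes called and the lowest and highest fold changes were named. The other genes named were chosen after their values were seen. Alternatives were RLE size factors, no scaling, DESeq2 1.42.0, the replicate block, other filters and thresholds, and each library left out. A withheld item is not reported here, though counts over all list genes include it.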

Additional observations from a re-analysis of the deposited data

Results flagged for a closer look

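The feeder-free library of line D, which has 102351560 counts, stood far from the remaining libraries of its condition in 4 measures. Such gaps were looked for in 64 sets of values, and chance alone gives about 3.2. HOXD3 had 2.48 CPM there, while lines A, C and E had 8.55 to 9.22. All 39 HOX genes summed to 2.80 CPM, against 9.12 to 10.4, most of which is HOXD3. The HOXB genes summed to 0.0977 CPM, against 0 in the others. The central HOX genes without HOXD4 summed to 0.0977 CPM as well, against 0.117 to 0.121, a difference of few counts. The MEF library of the same line was also the lowest for HOXD3, at 3.47 CPM.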

How the results depend on the processing

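The count of HOX genes called higher in feeder-free conditions was 0 under every alternative run. The count called lower was 0 with all libraries and 2 with the replicate block and no filter, and 0 to 1 when libraries were left out in turn. The 1 was HOXA5, which entered that test through MEF libraries alone. HOXD3, at a log2 fold change of 0.02, was at -0.038 with the replicate block and at -0.21 to 0.31 with a library left out. HOXD4, at -0.16, was at 0.39 with the replicate block and at -1.02 to 1.64 with a library left out. Neither passed under any of these. Detection on MEF, of 1 gene at 10 counts in every library, was 4 genes at 1 count in every library and 1 to 3 with a library left out, HOXA5 and HOXB9 entering without that of line A. In feeder-free conditions it was 1 to 2, HOXD4 entering without that of line D. Over all 39 genes the summed level was 10.1 CPM on MEF and 8.05 CPM in feeder-free conditions, in place of 2.59 and 0.218 without HOXD3 and HOXD4, so the difference is carried by the genes with few counts. Of list genes, 0 were called higher, 1 without scaling, 1 with DESeq2 and 4 with the replicate block, which called 5.52 percent of all tested genes higher. The count called lower was 6, 3 without scaling, 3 without a filter, and 0 to 7 with a library left out. The cause was not tested. The primed marker OTX2 passed as lower with the block only, at -0.66 (edgeR adjusted p = 0.00495). Beyond this and the calls given beside their values, the block changed none named in the text. CPM per kb of exon length was not run, for want of exon lengths. At these depths 2 to 20 counts do not rank single HOX genes.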
